A study of Bos indicus with 6 samples.

Results

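Toll-like receptors are membrane proteins of the innate immune system that bind molecules shared by many microbes, or released by damaged cells, and start an inflammatory response. The family is given here as TLR1 to TLR10, chosen by gene symbol, with earlier results of these data known. Of these 10 receptors, 8 were found by symbol in the isthmus table of 24616 genes. A symbol stood in 19971 of its rows, and TLR1 and TLR8, which may be among the rows without one, were not analysed here. All 8 receptors found passed the filter on low values. The comparison asks whether their transcripts in the isthmus, the narrow part of the oviduct that joins the uterus, differed between cows that had ovulated a large or a small follicle.

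The 6 cows were healthy, multiparous, non-lactating Nelore (Bos indicus), and each gave 1 RNA-seq library from the full wall of the isthmus beside the corpus luteum (CL) on day 4. After pre-synchronisation with a prostaglandin F2α analogue (PGF) and a GnRH agonist, every animal had a vaginal progesterone device (1 g) and 2 mg of estradiol benzoate on day -10, PGF at device removal and again 6 h later, and a GnRH agonist on day 0. In the large follicle and large CL group (LF/LCL, cows 617, 79 and 527), PGF was also given on day -10 and the device came out 42 h before GnRH, while in the small follicle and small CL group (SF/SCL, cows 856, 489215 and 97) it came out 30 h before GnRH without that extra PGF. The cows sequenced were the extremes of a ranking of each group, so they are not a random draw, and their ages are not given in the sources used here.

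Toll-like receptors of the cell surface bind mainly parts of the microbial envelope, and those of the endosome bind nucleic acids. TLR2 works in pairs with TLR1 or TLR6 and binds lipoproteins, TLR4 binds lipopolysaccharide together with CD14 and MD2, and TLR5 binds flagellin, whereas TLR3 binds double-stranded RNA, TLR7 and TLR8 single-stranded RNA, and TLR9 unmethylated DNA. Signals pass through the adaptor MYD88, or through TICAM1 for TLR3, to kinases and ubiquitin ligases and then to NF-kB and interferon regulatory factors. In the female tract these receptors are known from epithelium and from resident leukocytes, and the oviduct has to answer microbes while it tolerates sperm and the embryo.

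Values are normalised counts, that is, reads per gene divided by the size factor of the library, and they compare libraries but not genes, since no gene lengths were used. Whole reads could be recovered for 100% of the values. Their totals came to 25652651 for cow 617, 28659214 for cow 79, 29836083 for cow 527, 34193164 for cow 856, 25472906 for cow 489215 and 23899117 for cow 97. In the sentences that follow, values stand in this order of cows, LF/LCL cows 617, 79 and 527 before SF/SCL cows 856, 489215 and 97. Markers of the tissue were present in every library. The smooth muscle gene MYH11 had 157535, 137623 and 191119 in LF/LCL and 82654, 116653 and 122911 in SF/SCL, the epithelial gene EPCAM had 12286, 9925 and 8529.6 in LF/LCL and 15871, 20313 and 18854 in SF/SCL, and FOXJ1, a transcription factor of ciliated cells, had 6276, 5421 and 3436 in LF/LCL and 12042, 2609 and 11225 in SF/SCL.

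Some SF/SCL libraries stood apart from the rest. Cow 489215 held the lowest value of the 6 libraries for 35.7% of the 15387 genes tested and the highest for 36.7%, where the other cows held the lowest value for 8.61% to 18.7%. Cows 856 and 97 stood apart in another way. OVGP1, the oviductal glycoprotein of secretory cells, had 287, 1782 and 1949.9 in LF/LCL and 271794, 729.6 and 325158 in SF/SCL, the mesothelial gene MSLN had 808, 873 and 1871 in LF/LCL and 17590, 2299 and 18098 in SF/SCL, and WT1, also of the mesothelium, had 1269, 1302 and 1180.5 in LF/LCL and 8611, 1037 and 7984 in SF/SCL. Each receptor is therefore given with and without cow 489215. Because whole tissue was sequenced, fewer cells of a type and less RNA per cell cannot be told apart.

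Among the 8 receptors, 0 differed between the groups at a Benjamini-Hochberg adjusted p-value under 0.05 in limma, the linear model fitted to log2(normalised count + 1) of all 15387 genes. Over all those genes 0 passed as well (0%), the smallest adjusted p-value being 0.351, and 1333 (8.66%) had an unadjusted p-value under 0.05, which 0 of the 8 receptors reached in limma. The edgeR quasi-likelihood test on the recovered reads also called 0 receptors and 0 genes in all, with 1370 genes (8.9%) at an unadjusted p-value under 0.05, and DESeq2 called 0 receptors and 409 genes (2.66%), 1.32% of all genes being higher in SF/SCL and 1.34% lower, with 1768 (11.5%) at an unadjusted p-value under 0.05. In each of these count models 1 receptor, TLR5, had an unadjusted p-value under 0.05 (0.0374 in edgeR and 0.0119 in DESeq2). The groups overlapped for every one of the 8 receptors, whereas they did not overlap for 18.1% of all genes tested. TLR5 had the largest log2 fold change, and without cow 489215 it was the 1 receptor to pass the threshold, as did 18.2% of all genes.

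**Figure D1:**
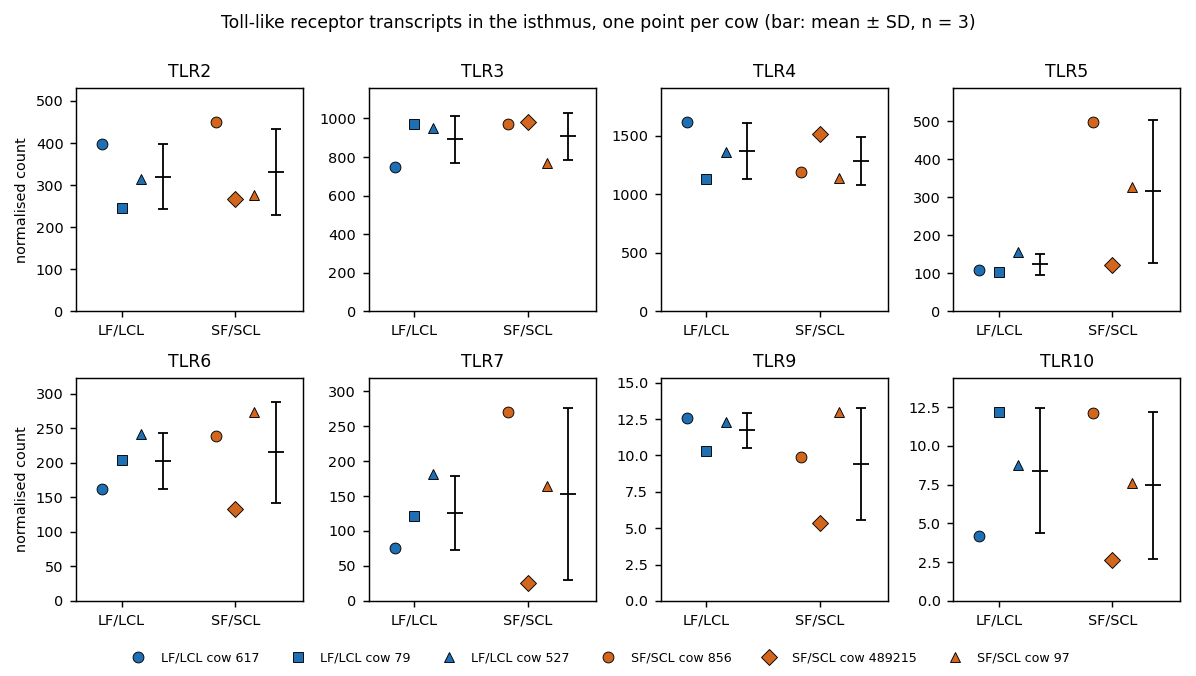
Normalised count (vertical axis, from 0, each panel with its own scale) of the 8 Toll-like receptors in each cow, LF/LCL in blue and SF/SCL in orange, with the mean ± SD of each group (n = 3) beside the points. Cow 489215, the diamond, lies among the LF/LCL cows for TLR5 and below all other cows for TLR6, TLR7, TLR9 and TLR10.

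TLR2, which recognises bacterial lipoproteins, showed little distance between the groups. Its normalised count (ENSBTAG00000008008) was 399, 246 and 315 in LF/LCL and 449.7, 268 and 276 in SF/SCL. The highest value belonged to SF/SCL cow 856 and the lowest to LF/LCL cow 79, so that each group spanned most of the range of the other. The means were 320.0 ± 76.5 in LF/LCL and 331 ± 103 in SF/SCL (SD, n = 3 each), and the log2 fold change of SF/SCL over LF/LCL was 0.03 (95% confidence interval -0.73 to 0.80, limma adjusted p = 0.981). Leaving out LF/LCL cow 79 or SF/SCL cow 856 turned this estimate to -0.14 or -0.21, and without cow 489215 it was 0.17 (limma adjusted p = 0.723).

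TLR6, a partner of TLR2, had 162, 204 and 242 in LF/LCL and 239, 133 and 274 in SF/SCL (ENSBTAG00000014031). SF/SCL cows 856 and 97 lay close to the highest LF/LCL cow, and cow 489215 lay below all of them. The means were 203 ± 40.1 in LF/LCL and 216 ± 73.5 in SF/SCL (SD, n = 3 each), with a log2 fold change of 0.04 (95% confidence interval -0.83 to 0.91, limma adjusted p = 0.981) that was 0.35 without cow 489215 (limma adjusted p = 0.319) and -0.16 without SF/SCL cow 97. In the RefSeq annotation of the NIAB-ARS_B.indTharparkar_mat_pri_1.0 assembly, which is not the one the authors used, TLR10, TLR6 and TLR1 are neighbours and the spans of TLR6 and TLR1 overlap. Whether they overlap in the authors' annotation was not examined, and reads shared between these related genes could have been lost from the counts, so that the level of TLR6 is uncertain.

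TLR10, the third gene of that cluster, was close to the limit of detection. It had 4, 13 and 10 reads in LF/LCL and 16, 2 and 7 reads in SF/SCL, where a count of 0 would still allow up to 3 reads. The exact Poisson 95% interval ran from 9.15 to 26.0 reads in cow 856, the highest, and from 0.242 to 7.22 in cow 489215, the lowest, and these intervals cover counting error only. As normalised counts the values were 4.19, 12.2 and 8.78 in LF/LCL and 12.2, 2.66 and 7.59 in SF/SCL (ENSBTAG00000014042). Both groups held low and high values, with a log2 fold change of -0.23 (95% confidence interval -1.85 to 1.38, limma adjusted p = 0.950), which turned to 0.28 without cow 489215 and to 0.06 without LF/LCL cow 79.

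TLR4, the lipopolysaccharide receptor, was among the steadiest members. Its normalised counts were 1616, 1131 and 1361 in LF/LCL and 1187, 1516 and 1140.1 in SF/SCL (ENSBTAG00000006240), with the highest value in LF/LCL cow 617 and the next in SF/SCL cow 489215. The group means of 1369.5 ± 243 in LF/LCL and 1281 ± 205 in SF/SCL (SD, n = 3 each) differed by less than the SD of either group. The log2 fold change was -0.09 (95% confidence interval -0.61 to 0.43, limma adjusted p = 0.935), or -0.22 without cow 489215 and 0.03 without LF/LCL cow 617.

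TLR5, the flagellin receptor, separated a pair of SF/SCL cows from the other 4 libraries. The normalised counts were 109.9, 104 and 155 in LF/LCL and 498, 122 and 327 in SF/SCL (ENSBTAG00000000477). Cows 856 and 97 lay above all LF/LCL cows, and cow 489215 lay between LF/LCL cows 617 and 527, so the groups overlapped. The means were 123 ± 28.1 in LF/LCL and 316 ± 188 in SF/SCL (SD, n = 3 each), a fold of 2.23 on the scale of log2(normalised count + 1) with a 95% confidence interval of 0.903 to 5.50. In limma this log2 fold change of 1.16 (standard error 0.54) had an adjusted p of 0.636. Without cow 489215 the log2 fold change was 1.73 (standard error 0.28, limma adjusted p = 0.0110), a fold of 3.31 (95% confidence interval 2.08 to 5.27), with both remaining SF/SCL cows above all 3 LF/LCL cows. Leaving out SF/SCL cow 856 instead lowered it to 0.72 (limma adjusted p = 0.7200) and leaving out SF/SCL cow 97 to 1.02 (limma adjusted p = 0.749). In the fit without cow 489215, 2827 of 15495 genes passed the threshold (18.2%), 10.3% of the genes being higher in SF/SCL and 7.92% lower. Beside these shares stood 1 receptor of 8, higher in SF/SCL. Cow 489215 was singled out from these same values. Leaving it out removes the lowest SF/SCL value of TLR5 and so narrows the spread within that group. Limma with a weight for each library called TLR5 too (log2 fold change 1.61), along with 29.8% of all genes. Its weights were estimated from the same values and gave cow 489215 only 0.0477, so this fit nearly repeats leaving that cow out and is no separate result. The adjusted p of TLR5 ran from 6.74e-07 to 0.999 over the 19 alternatives tried with limma, edgeR and DESeq2, and its fold change was above 0 in each of them.

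**Figure D2:**
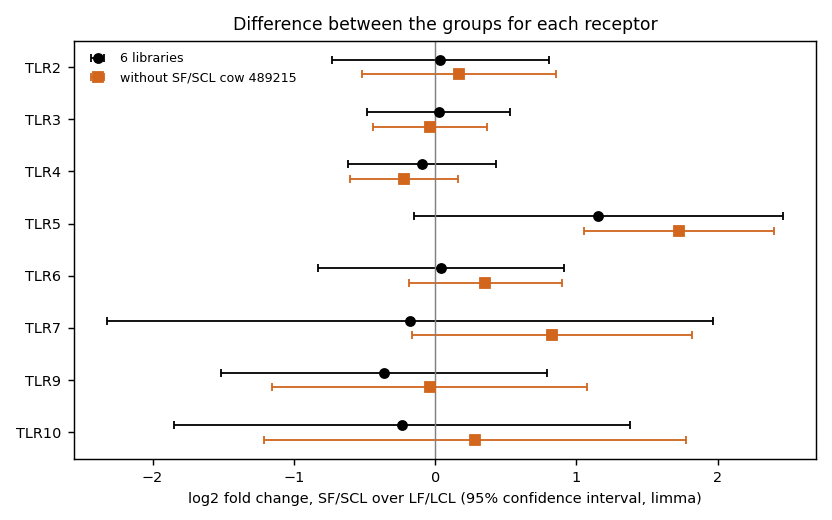
Log2 fold change of SF/SCL over LF/LCL (horizontal axis) with its 95% confidence interval from limma for each of the 8 receptors, with all 6 libraries in black and without SF/SCL cow 489215 in orange. The interval of TLR5 includes 0 with 6 libraries (-0.15 to 2.46) and lies above 0 without cow 489215 (1.06 to 2.40), and all other intervals include 0.

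Of the receptors of the endosome, TLR3, which binds double-stranded RNA, varied least of all members. It had 748, 972 and 953 in LF/LCL and 972, 981 and 768 in SF/SCL (ENSBTAG00000008682). The lowest value of each group, in cows 617 and 97, lay close together, and the other 4 cows were nearly level. The means were 891 ± 124 in LF/LCL and 907 ± 120.2 in SF/SCL (SD, n = 3 each), and the log2 fold change was 0.03 (95% confidence interval -0.48 to 0.53, limma adjusted p = 0.980), or -0.03 without cow 489215 and -0.09 without LF/LCL cow 617. In the same RefSeq annotation the span of TLR3 overlaps that of SORBS2, and without a stated strand setting reads of the pair might not be separated. SORBS2, named here for its position only, had 1008, 1077 and 924 in LF/LCL and 750.5, 252 and 741 in SF/SCL, and thus was lowest in cow 489215, where TLR3 was highest.

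TLR7, a receptor of single-stranded RNA, spread over the widest range. Its normalised counts were 75.4, 122 and 181 in LF/LCL and 270.4, 25.3 and 165 in SF/SCL (ENSBTAG00000022161). The highest value, in SF/SCL cow 856, was 10.7 times the lowest, in SF/SCL cow 489215, and the 3 LF/LCL cows and cow 97 lay between them. The means were 126 ± 52.9 in LF/LCL and 153 ± 123 in SF/SCL (SD, n = 3 each). The log2 fold change was -0.18 in limma (95% confidence interval -2.32 to 1.97, adjusted p = 0.969), but 0.29 in edgeR and in DESeq2 and 0.83 in limma without cow 489215 (adjusted p = 0.213), and 0.13 without LF/LCL cow 527, so its direction depended on the model and on the cows included. TLR8 is the neighbour of TLR7 on chromosome X in the same annotation and was not analysed here.

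TLR9, which binds unmethylated DNA, was represented by few reads, 12, 11 and 14 in LF/LCL and 13, 4 and 12 in SF/SCL. The normalised counts were 12.6, 10.3 and 12.3 in LF/LCL and 9.88, 5.33 and 13.01 in SF/SCL (ENSBTAG00000018198). The other 5 libraries lay above cow 489215, which had an exact Poisson 95% interval of 1.09 to 10.2 reads that meets those of the other cows, 5.49 being the lowest bound among them. The log2 fold change of -0.36 (95% confidence interval -1.52 to 0.80, limma adjusted p = 0.892) was -0.04 without that cow and -0.61 without SF/SCL cow 97.

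The receptors differed among themselves in how much they varied between cows. For TLR9 and TLR10, with at most 16 reads in a library, this variation includes counting error. The coefficient of variation over the 6 libraries was 12.2% for TLR3, 15.6% for TLR4, 24.9% for TLR2, 25.5% for TLR6, 27.1% for TLR9, 50.03% for TLR10, 61.5% for TLR7 and 72.8% for TLR5, beside a median of 31.5% over all genes tested. TLR3 thus varied less than most genes, and TLR5 varied as much as or more than 94.7% of them. Cow 489215 held the lowest value for 4 of the 8 receptors (TLR6, TLR7, TLR9 and TLR10) and the highest for 1 (TLR3). The median log2 fold change of the 8 receptors was -0.03, beside -0.02 for all genes tested, with 4 receptors above 0 and 4 below. Without cow 489215 this median turned to 0.22, beside -0.0009 for all genes.

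The other genes of the pathway were followed in lists by role, which held 64 genes. For these, 61 rows were found, IL6 standing under a pair of identifiers, and 55 of the rows passed the filter and were tested. TAB1, NFKBIA, CXCL2 and PTGS2 were not analysed here, although a row named BIKBA, which was not used, may be NFKBIA. In limma 0 of the 55 passed the adjusted threshold, as for all genes (0%), and edgeR and DESeq2 also called 0 of them. With an unadjusted p-value under 0.05, 4 genes were higher in SF/SCL (CD36, CD180, MD2 and TRAF6), where the share of all genes was 4.19%, and 2 lower (SARM1 and IL1B), where it was 4.48%. The groups did not overlap for 9 genes higher in SF/SCL and 5 lower, beside 9.51% and 8.6% of all genes. The median log2 fold change of the 55 was 0.11, beside -0.02 for all genes tested, and it was above 0 for 36 of them, beside 7472 of all 15387 genes.

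Proteins that assist the receptors at the membrane, with CD180 and LY86, had a median log2 fold change of 0.53 over the 5 tested. It was above 0 for 4 of the 5, beside 7472 of all 15387 genes, 0 passed the test, and 3 were higher in SF/SCL without overlap, beside 9.51% of all genes. MD2 (LY96), which forms the lipopolysaccharide site with TLR4, had 399.8, 421 and 352 in LF/LCL and 579.6, 674 and 522 in SF/SCL. All 3 SF/SCL cows lay above all LF/LCL cows, and its log2 fold change was 0.59 (standard error 0.21, limma adjusted p = 0.501). CD14, which passes lipopolysaccharide to TLR4 and MD2, had 195, 375 and 498 in LF/LCL and 319, 284 and 361 in SF/SCL and a log2 fold change of -0.05, the groups overlapping. CD36, a scavenger receptor that assists TLR2 and TLR6, had 318, 319 and 314 in LF/LCL and 487, 397 and 503 in SF/SCL. The LF/LCL cows were nearly equal and all SF/SCL cows higher, with a log2 fold change of 0.53 (limma adjusted p = 0.558), and 0.64 without cow 489215 (limma adjusted p = 0.0218). CD180, a relative of TLR4 on B cells and other leukocytes, had low counts of 3.14, 2.82 and 6.15 in LF/LCL and 16.7, 6.66 and 13.01 in SF/SCL, again without overlap, with a log2 fold change of 1.36 (limma adjusted p = 0.567). LY86, its partner, had 20.9, 45.1 and 46.6 in LF/LCL and 57.7, 27.96 and 43.4 in SF/SCL, and LBP, which binds lipopolysaccharide in plasma, stayed at or under 4.39 in every library and was not tested.

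Chaperones and trafficking proteins of the receptors had a median log2 fold change of -0.03 over 6 genes, with 0 passing the test and 0 without overlap, beside 18.1% of all genes. Without cow 489215 the median was -0.13, beside -0.0009 for all genes. UNC93B1, which carries the nucleic acid receptors to endosomes, had 862, 596 and 700.0 in LF/LCL and 1216, 709.6 and 1215 in SF/SCL. Cows 856 and 97 were above all LF/LCL cows and cow 489215 was not, a pattern shared with TLR5, and the log2 fold change of 0.51 (limma adjusted p = 0.711) was 0.77 without cow 489215 (limma adjusted p = 0.0258). HSP90B1, the chaperone on which most of these receptors depend for folding, had 21529, 24260 and 18929 in LF/LCL and 18260, 27579 and 19956 in SF/SCL, with overlapping groups and a log2 fold change of 0.01. For CNPY3, a cofactor of HSP90B1, and for TMED7 and LRRC59, which act in receptor transport, the log2 fold changes were 0.20, -0.07 and -0.19.

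Adaptors had a median log2 fold change of -0.09 over 5 genes, and 1 was lower in SF/SCL without overlap, beside 8.6% of all genes. MYD88, the common adaptor, had 1821, 1273 and 1705 in LF/LCL and 1682, 2019.7 and 1176 in SF/SCL, with the highest and the lowest value both in SF/SCL and a log2 fold change of 0.01 (95% confidence interval -0.63 to 0.64, limma adjusted p = 0.997). TIRAP, which brings MYD88 to TLR2 and TLR4, had 142, 150.2 and 104 in LF/LCL and 117, 42.6 and 124 in SF/SCL, cow 489215 being the lowest. The adaptor of TLR3, TICAM1, and its bridge to TLR4, TICAM2, had log2 fold changes of -0.09 and 0.11. SARM1, an adaptor known as a brake on TICAM1, had 309.8, 375 and 422 in LF/LCL and 222, 82.5 and 249 in SF/SCL. All SF/SCL cows lay below all LF/LCL cows, cow 489215 far below, and the log2 fold change of -1.14 (standard error 0.46, limma adjusted p = 0.566) was -0.64 without that cow (limma adjusted p = 0.0616).

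Kinases, ubiquitin ligases and their partners had a median log2 fold change of 0.01 over 14 genes, with 0 past the threshold, 3 higher in SF/SCL without overlap and 2 lower, beside 9.51% and 8.6% of all genes. Without cow 489215 the median was 0.23, beside -0.0009 for all genes. TRAF6, the ubiquitin ligase downstream of MYD88, had 946, 844 and 893 in LF/LCL and 1212, 1662 and 1167 in SF/SCL. All SF/SCL cows were above all LF/LCL cows, with a log2 fold change of 0.57 (limma adjusted p = 0.503), or 0.41 without cow 489215 (limma adjusted p = 0.0398). RIPK1, a kinase on the TICAM1 branch, had 1236, 1179.8 and 1110.2 in LF/LCL and 1373, 1403 and 1519 in SF/SCL, also higher in each SF/SCL cow, with a log2 fold change of 0.28. The groups did not overlap for IRAK4 either, the first kinase to join MYD88, which had 766, 819 and 698 in LF/LCL and 637, 549.9 and 591 in SF/SCL and was lower in SF/SCL, with a log2 fold change of -0.36 (limma adjusted p = 0.677). IRAK1, its substrate, had a log2 fold change of -0.25, again lower in each SF/SCL cow. For MAP3K7 and its partner TAB2 the estimates were -0.06 and 0.01, with overlapping groups.

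Transcription factors had a median log2 fold change of 0.29 over 8 genes, of which 0 passed the test and 3 were higher in SF/SCL without overlap, beside 9.51% of all genes. RELA, the activating subunit of NF-kB, had 3513, 2958 and 3151 in LF/LCL and 3846, 5278 and 3703 in SF/SCL. Its values were higher in each SF/SCL cow, most of all in cow 489215, with a log2 fold change of 0.40 (limma adjusted p = 0.650). IRF3, which acts downstream of TICAM1, had 1642, 1414 and 1606 in LF/LCL and 1854, 1885 and 1822 in SF/SCL, a log2 fold change of 0.26. IRF7, a factor of interferon induction by TLR7 and TLR9, had 560.0, 518 and 518 in LF/LCL and 1601, 519 and 1382 in SF/SCL. Cows 856 and 97 stood far above the other 4 libraries, as they did for TLR5, and the log2 fold change of 0.98 (limma adjusted p = 0.613) was 1.48 without cow 489215 (limma adjusted p = 0.00230). NFKB1 and NFKB2 had log2 fold changes of 0.10 and -0.07.

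Inhibitors had a median log2 fold change of 0.15 over 7 genes, with 0 past the threshold and 0 without overlap, beside 18.1% of all genes. PIK3AP1, also called BCAP and known as a brake on inflammatory Toll-like receptor signals, had 1893, 1687 and 2429 in LF/LCL and 9591, 1753 and 6392 in SF/SCL. Cows 856 and 97 were again far above the others, with a log2 fold change of 1.26 (limma adjusted p = 0.646) that was 1.98 without cow 489215 (limma adjusted p = 0.00360). TOLLIP, which restrains IRAK1, had 3572, 3464 and 3395 in LF/LCL and 3416, 4785 and 3278 in SF/SCL, highest in cow 489215 and level in the other libraries. CYLD, a deubiquitinase, had 1495, 1445 and 1445 in LF/LCL and 2583, 771 and 2143 in SF/SCL, with cow 489215 lowest and the other SF/SCL cows highest. The log2 fold changes of IRAKM (IRAK3), which blocks IRAK signalling, and of the NF-kB inhibitor NFKBIB were -0.28 and 0.24.

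Target genes of the pathway had a median log2 fold change of 0.10 over the 10 rows tested of 15 found, with 0 past the threshold and 2 lower in SF/SCL without overlap, beside 8.6% of all genes. IL1B, a cytokine induced through NF-kB, had 13.6, 17.8 and 27.2 in LF/LCL and 3.04, 3.99 and 6.503 in SF/SCL. All SF/SCL cows lay below all LF/LCL cows, with a log2 fold change of -1.89 (standard error 0.50, limma adjusted p = 0.405) on few reads. TNF, another such cytokine, had 18.8, 16.9 and 19.3 in LF/LCL and 5.32, 13.3 and 8.67 in SF/SCL, also without overlap, and a log2 fold change of -1.01 (limma adjusted p = 0.630). The chemokine CCL20 had 10.5, 0.939 and 0 in LF/LCL and 20.5, 5.33 and 16.3 in SF/SCL. Here the groups overlapped, and the log2 fold change of 2.24 (limma adjusted p = 0.624) rested on at most 27 reads in a library. CCL5, the adhesion molecule ICAM1 and the mitochondrial enzyme SOD2 had log2 fold changes of 0.32, -0.40 and 0.14, their groups overlapping. Without cow 489215 these were 0.08, 0.15 and 0.44, so that ICAM1 turned direction.

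Without cow 489215, 10 of the 55 pathway genes passed the limma threshold, and all 10 were higher in SF/SCL, where 10.3% of all genes passed in that direction and 7.92% in the other. In other fits 18 were higher and 6 lower with array weights (all genes 15.2% and 14.6%), and without that cow 11 were higher and 2 lower in DESeq2 (all genes 13.5% and 11.8%) and 11 higher and 0 lower in edgeR (all genes 10.3% and 7.53%). Besides CD36, UNC93B1, TRAF6, IRF7, PIK3AP1 and CYLD, the 10 genes of the limma fit were TRAF3, IKBKE, REL and TNFAIP3, chosen for naming once their values were seen. In cow 489215 each of those 4 had the lowest value of all libraries. REL, an NF-kB subunit, had 128, 155 and 146 in LF/LCL and 554, 49.3 and 573 in SF/SCL, and TRAF3, a ubiquitin ligase of the interferon branch, had 342, 316 and 314 in LF/LCL and 579.6, 107 and 545 in SF/SCL. IKBKE, a kinase of the same branch, had 195, 215 and 178 in LF/LCL and 385, 94.5 and 413 in SF/SCL, and TNFAIP3, a deubiquitinase that limits NF-kB, had 229, 237 and 177 in LF/LCL and 453, 67.9 and 344 in SF/SCL. With all 6 libraries their log2 fold changes were 0.81, -0.0025 for TRAF3, 0.34 and 0.05, and without that cow 1.98, 0.79, 1.03 and 0.89.

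**Figure D3:**
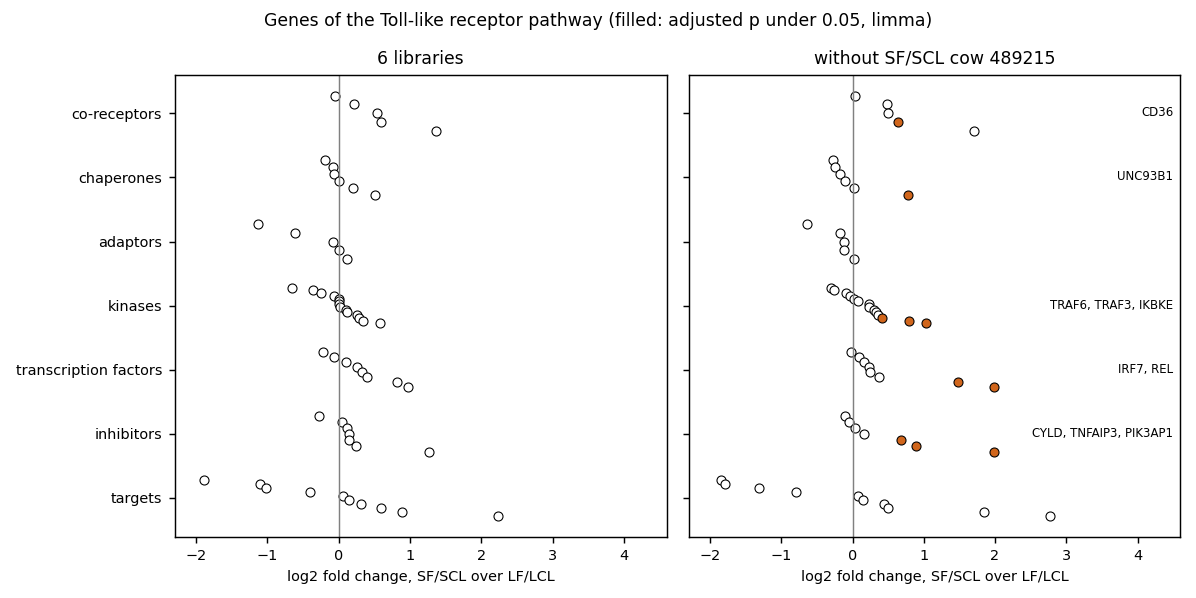
Log2 fold change of SF/SCL over LF/LCL (horizontal axis) of the 55 pathway genes tested, 1 point per gene, by role, with all 6 libraries (left) and without SF/SCL cow 489215 (right). Filled points have a limma adjusted p under 0.05 and are named from left to right at the margin, and there are 0 on the left and 10 on the right, all higher in SF/SCL.

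Some markers of epithelium and mesothelium were high in the same cows as TLR5, and others were not. Ciliated cell markers summed to 11684, 10191 and 8077 in LF/LCL and 22538, 7783 and 21046 in SF/SCL, with FOXJ1 the most abundant and PIFO at 0 in every library, and 5 of 5 genes tested were higher in SF/SCL (median log2 fold change 0.65, 0 past the limma threshold, and without cow 489215 a median of 1.15 and 5 past it as higher, beside 10.3% of all genes). Like TLR5, the sum was high in cows 856 and 97 and not in cow 489215. Secretory and general epithelial markers, led by OVGP1, summed to 43376, 33231 and 30798 in LF/LCL and 317854, 62432 and 379298 in SF/SCL. OVGP1 carried this sum in cows 856 and 97, failed the filter because its SD was above its mean, and was not tested. Without it the sum was 43089, 31448 and 28848 in LF/LCL and 46060, 61702 and 54140 in SF/SCL, with cow 489215 the highest, as it was for EPCAM, KRT8, KRT19 and KRT7. KRT18 was highest in cow 97, and PAX8, like TLR5, was high in cows 856 and 97 and not in cow 489215, with 663, 503 and 539 in LF/LCL and 1441, 469 and 1437 in SF/SCL (log2 fold change 0.81, and 1.35 without that cow, limma adjusted p = 0.00352). Of this list 6 of 7 genes tested were higher in SF/SCL (median log2 fold change 0.76, 0 past the limma threshold, and without cow 489215 3 higher and 1 lower, beside 10.3% and 7.92% of all genes). The exception was E-CADHERIN (CDH1), with 5285, 4830.1 and 4674 in LF/LCL and 2716, 2715 and 2993 in SF/SCL. Mesothelial markers, led by MSLN, summed to 2169, 2500.5 and 3138 in LF/LCL and 26238, 3478 and 26708 in SF/SCL, and all 3 genes had reads in every library. Yet 0 of them passed the filter with 6 libraries, each having an SD above its mean. UPK3B did not follow MSLN and WT1, with 92.1, 326 and 86.96 in LF/LCL and 37.2, 141 and 626 in SF/SCL, and was lowest in cow 856. Without cow 489215 only WT1 was tested, and it was higher in SF/SCL (log2 fold change 2.73, limma adjusted p = 0.000534), beside 10.3% of all genes. The part of all these markers in the TLR5 values was not tested.

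The summed markers of muscle and of fibroblasts were lowest in cows 856 and 97, though not each gene was. MYH11 was lower in cow 489215 than in cow 97, and LUM, a fibroblast gene, had 9839, 7005 and 7493 in LF/LCL and 3955, 3462 and 4693 in SF/SCL, lowest in cow 489215. Smooth muscle markers, led by ACTA2, summed to 798919, 727551 and 678407 in LF/LCL and 308670, 1183220 and 372275 in SF/SCL, cow 489215 being the highest, and 5 of 5 genes tested had log2 fold changes below 0 (0 past the limma threshold, and without cow 489215 4 lower, beside 7.92% of all genes). Fibroblast markers, led by COL3A1, summed to 380508, 480244 and 456274 in LF/LCL and 184999, 282289 and 195811 in SF/SCL, with 6 of 6 genes lower in SF/SCL (median log2 fold change -1.03, 0 past the limma threshold, and without cow 489215 6 lower, beside the same 7.92%). The part of these markers in the receptor values was not tested either. Endothelial markers, led by VWF, summed to 9706, 12591 and 9522 in LF/LCL and 8382, 9146 and 8590.0 in SF/SCL, and 4 of 4 genes tested had log2 fold changes below 0. The groups overlapped for VWF, TEK and KDR and not for CDH5, lower in SF/SCL, beside 8.6% of all genes (0 past the limma threshold, and without cow 489215 CDH5 alone, beside 7.92%).

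Leukocyte markers were followed because leukocytes carry many of these receptors. Macrophage markers, led by CSF1R and found for 12 of 13 genes, summed to 2392, 5583 and 5458 in LF/LCL and 6829, 2752 and 4994 in SF/SCL. The lowest sums belonged to cows 617 and 489215 and the highest to cow 856, as for TLR7, and 6 genes were higher and 6 lower in SF/SCL (median log2 fold change 0.02, 0 past the limma threshold). Without cow 489215 this median was 0.34, beside -0.0009 for all genes. CSF1R, the receptor for macrophage growth factor, had 539, 1022 and 1242 in LF/LCL and 1227, 273 and 1026 in SF/SCL, lowest in cow 489215, as were CD163, CD68, MSR1, CYBB, TYROBP and ITGAM. The other 5 genes were lowest in cow 617 instead. Among them C1QB, a complement gene, had 209, 623 and 440.0 in LF/LCL and 1169.8, 457 and 673 in SF/SCL, and FCER1G, a signalling chain of antibody receptors, had 186, 252 and 229 in LF/LCL and 262, 332 and 229 in SF/SCL, highest in cow 489215. TLR6 and TLR10 were also lowest in cows 617 and 489215, though highest in cows 97 and 79. The part of macrophages in the TLR6, TLR7 and TLR10 values was not tested. General leukocyte markers, led by LCP1, summed to 6475, 7109 and 7683 in LF/LCL and 9827, 5596 and 6539 in SF/SCL.

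Other blood cells showed other orders. T cell markers, led by CD3E, summed to 643, 633 and 656 in LF/LCL and 630.5, 1024 and 637 in SF/SCL, with cow 489215 highest and the other 5 cows nearly level. CD3E, with 622 in cow 489215, and CD3G were highest there, but CD3D was highest in cow 79, CD2 in cow 97 and CD5 in cow 527. The groups did not overlap for CD2, higher in SF/SCL (log2 fold change 0.54), and CD5, lower (-0.82), beside 9.51% and 8.6% of all genes. B cell markers, led by CD79A, summed to 64.9, 83.5 and 139 in LF/LCL and 88.1, 86.5 and 85.6 in SF/SCL, and PAX5, which defines these cells, was at 0 in 5 libraries and had 0.878 in cow 527. Neutrophil markers, led by S100A12, summed to 245, 231 and 134 in LF/LCL and 215, 136 and 409 in SF/SCL, with CXCR2 at or near 0. S100A12 and S100A8 were highest in cow 97, and S100A9 in cow 527. CSF3R had 12.6, 11.3 and 9.66 in LF/LCL and 6.84, 9.32 and 5.42 in SF/SCL. It was lower in SF/SCL without overlap (log2 fold change -0.59), beside 8.6% of all genes. Erythrocyte markers, led by HBB, summed to at most 6.66 in any library. In these leukocyte and blood lists 0 genes passed the limma threshold with or without cow 489215, beside 0% and 18.2% of all genes.

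**Figure D4:**
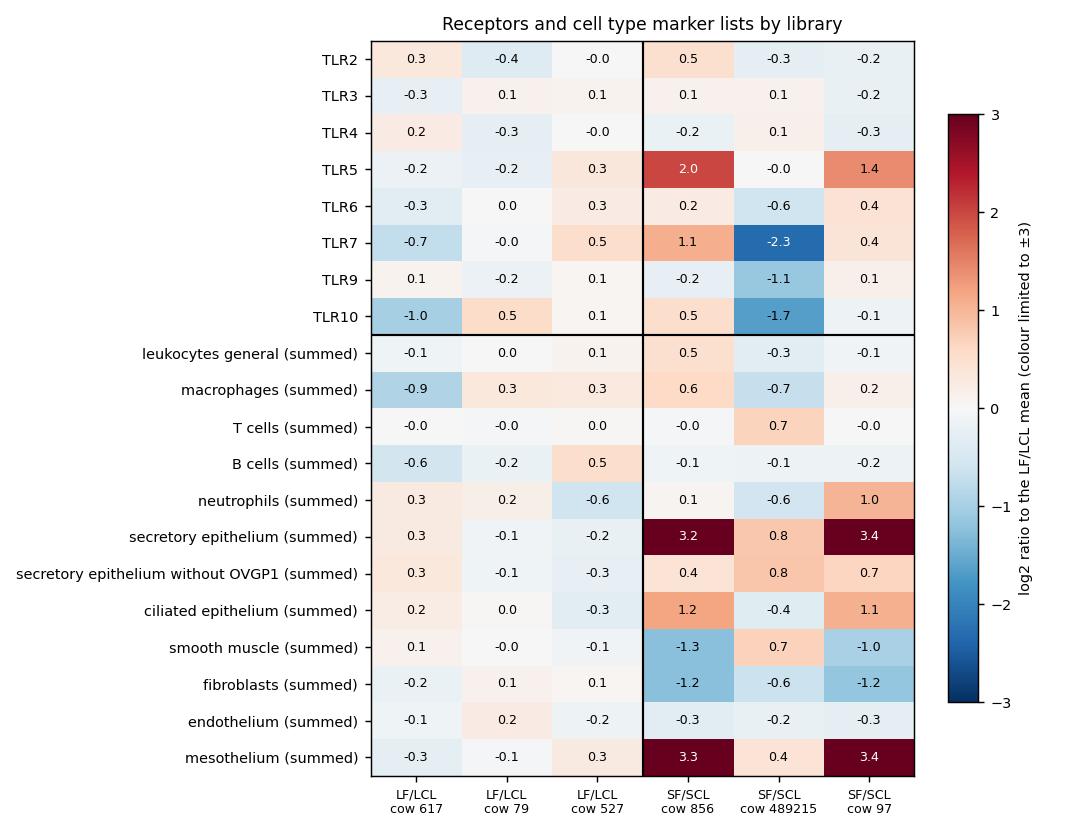
Log2 ratio of each library to the LF/LCL mean (colour, limited to ±3, with the value printed) for the 8 receptors, above the line, and for the summed markers of each cell type, below it, with 1 column per cow. TLR5 has 2.0 in cow 856 and 1.4 in cow 97, where ciliated and mesothelial markers are also above 1. Secretory markers are above 1 in these cows through OVGP1 alone and, with or without OVGP1, have 0.8 in cow 489215, where TLR5 has 0.0. TLR7 has -2.3 in cow 489215 and -0.7 in cow 617, where macrophage markers are at -0.7 and -0.9. In the same cows TLR10 has -1.7 and -1.0 and TLR6 has -0.6 and -0.3, and cow 489215 held the lowest value for 35.7% of all genes tested.

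The genes most like each receptor were found by Pearson's r of log2(normalised count + 1) over the 6 libraries among 15386 other genes tested, as a description. Many genes reach a high r over so few libraries, and the same libraries also differ in depth and in the markers given above. Since the genes were chosen by r, an order of cows shared with the receptor follows from that choice. For TLR5 they were AK8, PIK3AP1 and MGC139254 (r = 0.996, 0.995 and 0.995), of which PIK3AP1 is also a member of the inhibitor list above. AK8, an adenylate kinase, had 399, 339.8 and 493 in LF/LCL and 1473, 378 and 1025 in SF/SCL, the order of cows 856 and 97 above cow 527 being that of TLR5. For TLR7 they were ZNF483, KDM7A and ZFHX4 (r = 0.999, 0.993 and 0.993). KDM7A, a histone demethylase, had 346, 425 and 576 in LF/LCL and 864, 119.8 and 538 in SF/SCL, with cow 489215 lowest as for TLR7.

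For TLR2 the nearest genes were IQGAP3, FSD2 and NKG2A (r = 0.977, 0.975 and 0.971), the last a receptor of natural killer cells. For TLR4 they were ACR, TOM1 and WNT3A (r = 0.994, 0.993 and 0.976), and for TLR6 WHSC1L1, SUGP2 and PPP2R2C (r = 0.997, 0.989 and 0.989). TOM1, a trafficking protein, had 1881, 1354 and 1650.4 in LF/LCL and 1435, 1783 and 1425 in SF/SCL, with cows 617 and 489215 highest as for TLR4. For TLR3 they were EVI2A (r = 0.959) and a pair of genes without a symbol, ENSBTAG00000034643 and ENSBTAG00000037775 (r = 0.963 and 0.957). The low counts of TLR9 and TLR10 make their nearest genes less certain, FLNC, C1orf101 and PCDH1 for TLR9 (r = 0.996, 0.991 and 0.9901) and MAPK11 and bta-mir-2383 for TLR10 (r = 0.984 and 0.983).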

How the data were processed

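Polyadenylated RNA was sequenced as paired ends (Illumina TruSeq and HiSeq). The authors trimmed the reads by seqyClean, mapped them to the repeat-masked bovine UMD3.1 genome and counted uniquely mapped reads per Ensembl gene, and the submitters' notes name TopHat2 2.0.8, Bowtie2 2.1.0, HTSeq 0.5.4p2 and DESeq 1.12.1; a strand setting is not given in the sources used here. The deposited signal values are read counts over the size factor of each library. Whole reads were recovered within 0.02 steps for 100% of 147696 values, with totals of 23899117 to 34193164 and size factors from 0.751 to 1.32.

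Members were matched by symbol, read from the row name. SF/SCL was compared with LF/LCL, without covariates, by limma 3.58.1 in R 4.3.3 with a robust, trended prior on log2(value + 1), which understates the change of low genes. The filter asked for a mean over 6 libraries greater than 5 and than the SD, which kept 15387 genes, with Benjamini-Hochberg adjustment over all of them. Alternatives on recovered reads used edgeR 4.0.16 and DESeq2 1.42.0, besides limma-voom, other pseudocounts (0.5 and 5), other filters, TMM rescaling, array weights and each cow left out. The fits were tested on simulated data. There DESeq2 made more false calls than its threshold allows, and limma and edgeR with 6 libraries missed most changes of 2-fold. Tables and plots used Python 3.11.15, pandas 2.3.3, scipy 1.17.1 and matplotlib 3.10.9.

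The members and lists were chosen with earlier results of these data known. Named were all receptors, co-receptors and adaptors, of every other pathway list the 3 genes with the highest mean and the 3 with the smallest p, and the 3 genes most like each receptor, of which 1 is not reported here; genes outside this rule are named as such, and markers came from fixed lists. Older symbols were used for LY96 (MD2), IRAK3 (IRAKM), CXCL8 (IL-8) and CDH1 (E-CADHERIN). Marker genes MRC1, ACTG2, PECAM1 and SLC4A1 were not analysed here.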

Additional observations from a re-analysis of the deposited data

How the results depend on the processing

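With all 6 libraries, limma called 0 genes, 0 receptors and 0 pathway genes (1333 genes at an unadjusted p-value under 0.05), and these counts stayed at 0 with other pseudocounts, filters, TMM rescaling, limma-voom, limma without trend, and both edgeR fits. DESeq2 called 409 genes, 203 higher in SF/SCL and 206 lower, but 0 receptors and 0 pathway genes. Weighting each library (array weights) called 4581 genes, 1 receptor (TLR5) and 24 pathway genes (18 higher in SF/SCL and 6 lower). The weight of cow 489215 was 0.0477, and the iterations ended short of limma's tolerance. Leaving out each cow in turn gave 0 to 2827 genes, 0 to 1 receptors and 0 to 10 pathway genes, the highest counts all without cow 489215. A pair of count models without that cow, chosen after seeing the data, gave 2768 genes, 1 receptor and 11 pathway genes, all higher (edgeR), and 3922 genes, 1 receptor and 13 pathway genes, 11 higher and 2 lower (DESeq2). The cause was not tested.

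TLR5 kept its direction in all 19 alternatives, with log2 fold changes from 0.72 (without SF/SCL cow 856) to 1.74, and passed the threshold in 4, which were those with array weights (1.61) and without cow 489215 (1.73 in limma, 1.74 in edgeR and 1.74 in DESeq2). All 4 leave out cow 489215 or give it a weight of 0.0477, so they are not separate results. For TLR7, with -0.18 in limma, the estimate turned to 0.29 in both edgeR fits and in DESeq2, 0.56 with array weights, 0.78 in edgeR and 0.78 in DESeq2 without cow 489215, and in limma to 0.83 without that cow and 0.13 without LF/LCL cow 527. TLR3 turned from 0.03 to -0.18 with array weights and to -0.037 in edgeR and -0.040 in DESeq2 without cow 489215, TLR9 from -0.36 to 0.12 with array weights, and TLR10 from -0.23 to 0.24 in edgeR and 0.23 in DESeq2 without that cow. With each cow left out in turn, the log2 fold change in limma ran from -0.21 to 0.21 for TLR2, from -0.095 to 0.14 for TLR3, from -0.22 to 0.034 for TLR4, from -0.16 to 0.35 for TLR6, from -0.86 to 0.83 for TLR7 and from -0.64 to 0.28 for TLR10. For TLR9 it ran from -0.61 to -0.04. No paired analysis was possible because the cow numbers are not shared between the groups. TLR9 and TLR10 had at most 16 reads in a library, which limits what can be seen of them.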
